A study of Zea mays with 68 samples.

Results

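A set of 200 maize genes was examined whose transcripts were lower in internode 7-8 than in the vegetative meristem, and lower again in internode 6-7. The genes were taken from 109715 gene rows, of which 29827 had at least 1 FPKM (fragments per kilobase, scaled to mapped fragments) in at least 2 libraries and were tested. The rule averaged log2(FPKM + 1) over the libraries of each tissue. Step 1 was the meristem mean minus the internode 7-8 mean, and step 2 was the internode 7-8 mean minus the internode 6-7 mean. Both steps had to reach 0.6, which 393 genes did (1.32% of tested genes), and the 200 with the highest score, the smaller of both steps, are the members. The values that chose the members are given as a description and were not tested. Mature female spikelets took no part in the choice and serve as the outside tissue.

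All plants were of the inbred line B73, with no treatment or transgene named in the labels. The vegetative meristem was sampled together with the tissue around it and had 2 libraries, so its values belong to a mixture of young organs and shoot apex. Internode 7-8, internode 6-7 and the spikelets, the units of the ear that carry the flowers, had 3 libraries each. The labels give no plant age, and they do not say which of the internodes was older, so each is called by its label.

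In grasses, the shoot apex holds stem cells that give rise to leaf primordia at its flanks and to the stem below. Stem tissue is added in segments, the internodes, whose cells divide, elongate and then build thick walls. Transcription factor families such as YABBY and growth-regulating factors act in young leaves and other lateral organs, where they set the upper and lower face of the organ and keep cells dividing. Because bulk tissue was sequenced, fewer cells of a type and less RNA per cell cannot be told apart at any of the levels below.

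Summed FPKM lay between 915006 and 1133358 per library, and 23877 to 26665 genes reached 1 FPKM. Sequencing depth is unknown. The tissue labels were read against marker genes. Of the floral markers, 8 of 8 symbols were matched by 12 identifiers, and their summed level was 1680 to 1800 FPKM in spikelets and at most 6.91 FPKM in any other library. Of the vegetative meristem markers, 8 of 11 were matched, and their sum did not set the meristem apart. It ran from 305 to 314 FPKM there, from 353 to 531 in internode 7-8, from 283 to 326 in internode 6-7 and from 105 to 182 in spikelets. The homeobox genes KN-1 and knox3 had mean levels of 138 and 10.5 FPKM in the meristem against 250 and 31.4 in internode 7-8. In contrast, the YABBY gene yab14 and the homeobox gene ns1 were at 40.6 and 2.16 FPKM in the meristem and at 0 in every internode 6-7 library. Of the green leaf markers, 7 of 8 were matched, and their sum ran the other way from the members. It was 113 to 116 FPKM in the meristem, 204, 661 and 1380 FPKM in internode 7-8 libraries 2, 3 and 4, and 1050 to 1300 FPKM in internode 6-7. Cab-m7, cab-m9, rbcS and psbs1 rose in this way, led by Cab-m7 with means of 47.0, 467 and 713 FPKM. Pep1 (GRMZM5G899080) fell from the meristem to internode 7-8 but hardly further, with means of 42.9, 3.66 and 3.11 FPKM. Its step 2 was 0.18, and its internodes overlapped. The means of pep1 (GRMZM2G083841) and C4ppdkZm1 were at most 1.51 FPKM in meristem and internodes. Of 7 markers of stem with secondary walls only bk2 and BM1 were matched. Their sum was 19.2 to 24.2 FPKM in the meristem and 59.7 to 88.3 FPKM in internode 6-7. In internode 7-8 it was 33.5 to 84.3 FPKM, which overlapped internode 6-7, and in spikelets 37.8 to 49.6 FPKM. Nearly all of it was BM1, as bk2 had means of 0.086, 0.0835 and 0.0884 FPKM in meristem, internode 7-8 and internode 6-7. No marker gene was a member. The part of these differences in the members' levels was not tested.

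The median member had a mean of 36.0 FPKM in the meristem, 10.8 FPKM in internode 7-8 and 3.13 FPKM in internode 6-7. Over all tested genes the same medians were 8.91, 6.81 and 7.32 FPKM. Step 1 was the larger of both in 142 members and step 2 in the other 58. Step 1 ran from 0.77 to 5.67 with a median of 1.44, and step 2 from 0.77 to 3.72 with a median of 1.03. Step 1 was at least 2 in 61 members and step 2 in 18. At the limit of the score, the last members inside were GRMZM2G083655 at 0.767, and GRMZM2G471517 and GRMZM2G073086 at 0.766. The first genes outside were GRMZM2G126386 at 0.764, and GRMZM2G126194 and GRMZM2G004886 at 0.762. The edge is therefore a point on a continuous scale of scores.

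**Figure D1:**
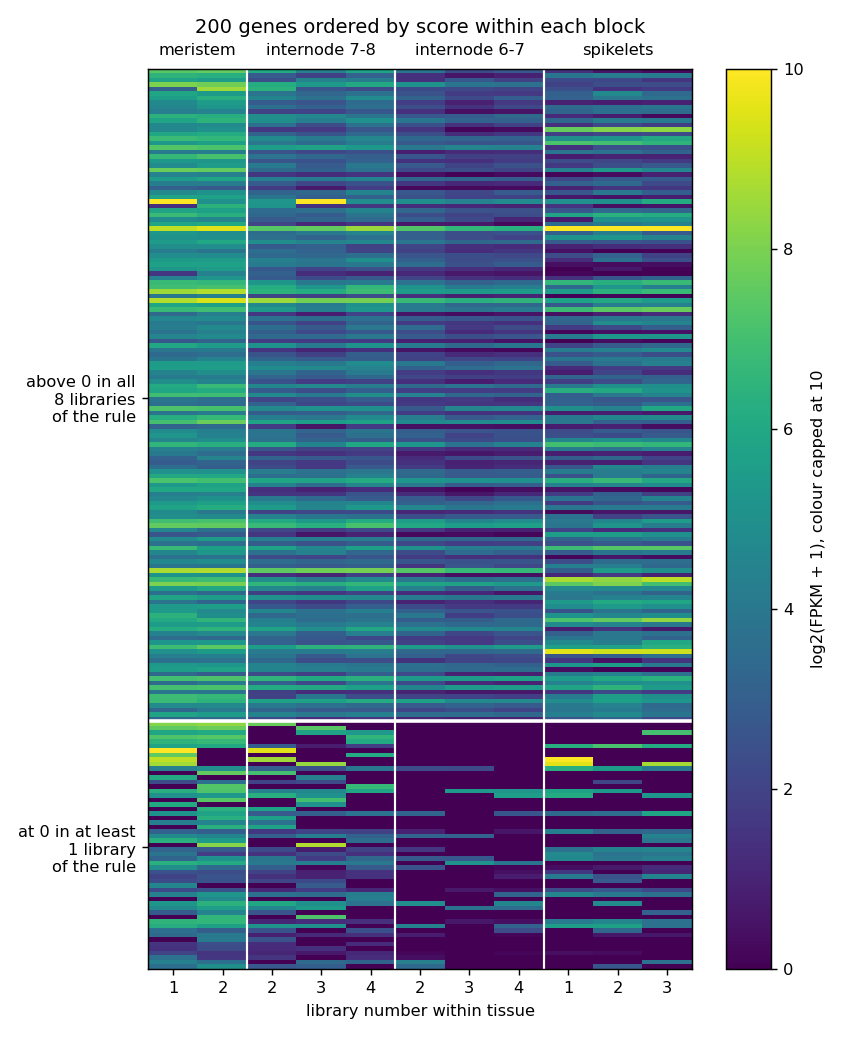
Levels of the 200 members as log2(FPKM + 1), with 1 row per gene and 1 column per library, grouped by tissue; colour is capped at 10. The upper block holds the 145 members above 0 in all 8 libraries of the rule, of which 113 fall over the first 3 tissues without overlap. The lower block holds the 55 members at 0 in at least 1 of these libraries, of which 10 fall without overlap and many are bright in single libraries.

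By zeros alone, the members were divided into a regular and an irregular group. In 145 members every one of the 8 libraries of the rule was above 0. The other 55 members (27.5%) were listed at 0 in at least 1 of these libraries, against 9.06% of all tested genes. An exact 0 in a file without counts can be a failed estimate, so these genes are only said to be listed at 0. Of the 55, 31 were at 0 in all 3 internode 6-7 libraries, and 22 of these were also at 0 in all 3 spikelet libraries. They were concentrated at the top of the score, with 12 among the 20 highest and 22 among the 40 highest. Only 3 of the 55 (5.45%) were matched to a gene of the reference, whereas 88 of the 145 (60.7%) were.

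The 5 highest scores belonged to identifiers without a name. GRMZM2G499234 had 284 and 320 FPKM in the meristem, 210, 0 and 0 in internode 7-8 libraries 2, 3 and 4, and 0 in every library of internode 6-7 and spikelets. GRMZM2G501144 had 183 and 212 FPKM in the meristem, 0, 174 and 0 in internode 7-8 and 0 in all other libraries. In both, 1 of 3 internode 7-8 libraries made the whole of step 2. GRMZM2G554032 had 150 and 165 FPKM in the meristem and 0, 0 and 94.2 in internode 7-8, with 0 elsewhere. GRMZM2G522769 had 59.8 and 67.8 FPKM in the meristem, 0, 53.2 and 41.6 in internode 7-8, 0 in internode 6-7 and 0, 0 and 131 in spikelets. The exception among these 5 was GRMZM2G371793, the highest score among members above 0 throughout. It had 169 and 191 FPKM in the meristem, 68.8, 19.4 and 54.6 in internode 7-8, 13.8, 3.86 and 5.64 in internode 6-7, and 1.68, 0.496 and 0.186 in spikelets, with no overlap between any of the 4 tissues.

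Such swings were common. In 31 members a library was at 0 while another of the same tissue had 10 FPKM or more, against 0.862% of tested genes. In 28 members the highest library of the meristem or of internode 7-8 was at least 10 times the next, against 2.43% of tested genes. Only 4 of these 28 were above 0 throughout, and the named gene pma1 (GRMZM2G104325) was 1 of them. It had 2980 and 31.5 FPKM in the meristem, 36.0, 2590 and 28.8 in internode 7-8, 30.2, 20.6 and 27.1 in internode 6-7, and 32.1, 31.5 and 70.7 in spikelets. Without its single extreme meristem and internode 7-8 libraries, pma1 lay between 20.6 and 70.7 FPKM in all tissues.

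**Figure D2:**
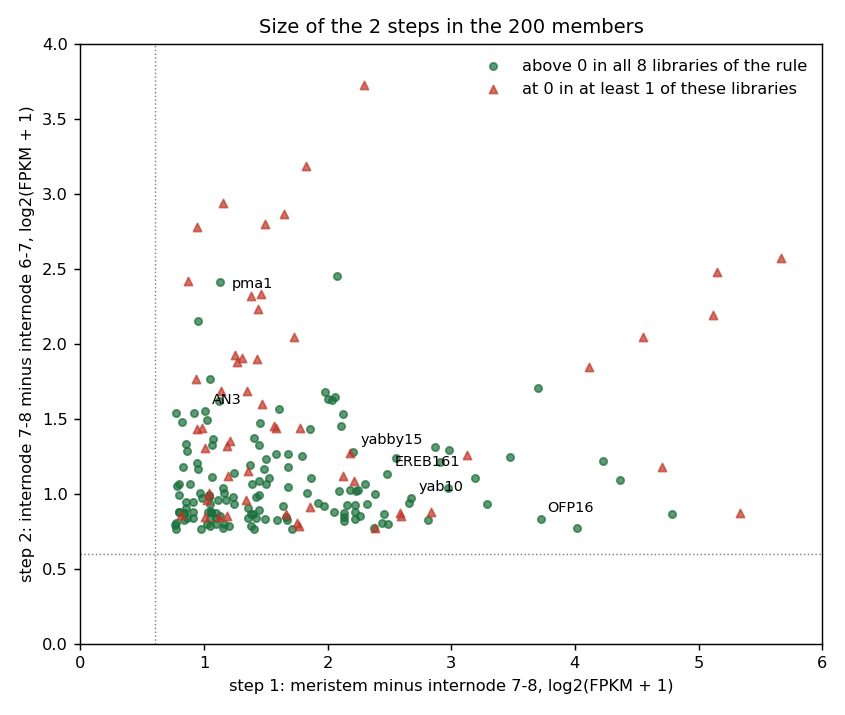
Step 2 (vertical axis) against step 1 (horizontal axis) of the 200 members, both as differences of log2(FPKM + 1), with dotted lines at the limit of 0.6; circles are the 145 members above 0 in all 8 libraries of the rule, and triangles are the 55 members at 0 in at least 1. Of the 18 members with step 2 of at least 2, 3 are circles, and pma1 is 1 of these.

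The order of the single libraries was clean in most members of the regular group. All meristem libraries lay above all internode 7-8 libraries in 169 members (37.1% of tested genes did so). All internode 7-8 libraries lay above all internode 6-7 libraries in 127 members (8.15% of tested genes). Both held in 123 members (3.64% of tested genes), of which 113 were above 0 in all 8 libraries. With limma, 109 members were called higher in the meristem than in internode 7-8 (13.9% of tested genes, and 4.02% lower), and 4 were called higher in internode 7-8 than in internode 6-7 (0.0168% of tested genes, and 0.107% lower). The rule chose for these differences, so the counts describe the members and support nothing. Of the 18 named members, 14 showed both orders without overlap.

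The libraries of 1 tissue did not carry the pattern equally. Among the 145 regular members, internode 7-8 library 3 was the lowest of its tissue in 102 (70.3%), against 25.0% of tested genes above 0 in the same libraries. Internode 6-7 library 2 was the highest of its tissue in 110 (75.9%), against 52.3% of those genes. In the regular members the median level was 8.59 FPKM in internode 7-8 library 3 and 11.9 and 12.5 FPKM in libraries 2 and 4. It was 5.36 FPKM in internode 6-7 library 2 and 3.67 and 4.32 FPKM in libraries 3 and 4. The named members rs2, cyclin11 and rop6, whose internodes overlapped, all had internode 6-7 library 2 as the highest of its tissue and internode 7-8 library 3 as the lowest. In pma1, the remaining named member with overlap, internode 7-8 library 3 was the highest.

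When 1 library was left out and 200 genes were chosen again from the rest, 133 to 177 of the original members were kept. The left-out library then gave a reading that the new choice had not used on that side. The other side of each step still came from libraries that chose the genes, which by itself favours a fall. These readings are therefore a description and no independent test of either step. For step 1, a left-out meristem library gave medians of 1.25 and 1.42, against 1.62 and 1.53 in the libraries that were kept. A left-out internode 7-8 library gave 1.58, 2.05 and 1.69, against 1.44, 1.47 and 1.44. The choice for step 2 favoured genes high in the kept internode 7-8 libraries, which by itself can enlarge step 1 in the left-out library. For step 2, internode 7-8 libraries 2, 3 and 4 gave 0.93, 0.58 and 0.95, against 0.95, 1.07 and 0.95 in the libraries that were kept. Internode 6-7 libraries 2, 3 and 4 gave 0.69, 1.05 and 1.02, against 1.22, 1.02 and 1.03. With internode 7-8 library 3 left out, 96 of the 200 genes reached 0.6 in it (4.54% of tested genes did), the lowest count of the 6 internode libraries, and 176 were above 0. A core of 63 members was chosen whichever of the 8 libraries was left out, 57 of them above 0 throughout. The core held 6 named genes, yabby15, EREB161, Baf1R-1, yab10, sbp29 and HSF2.

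**Figure D3:**
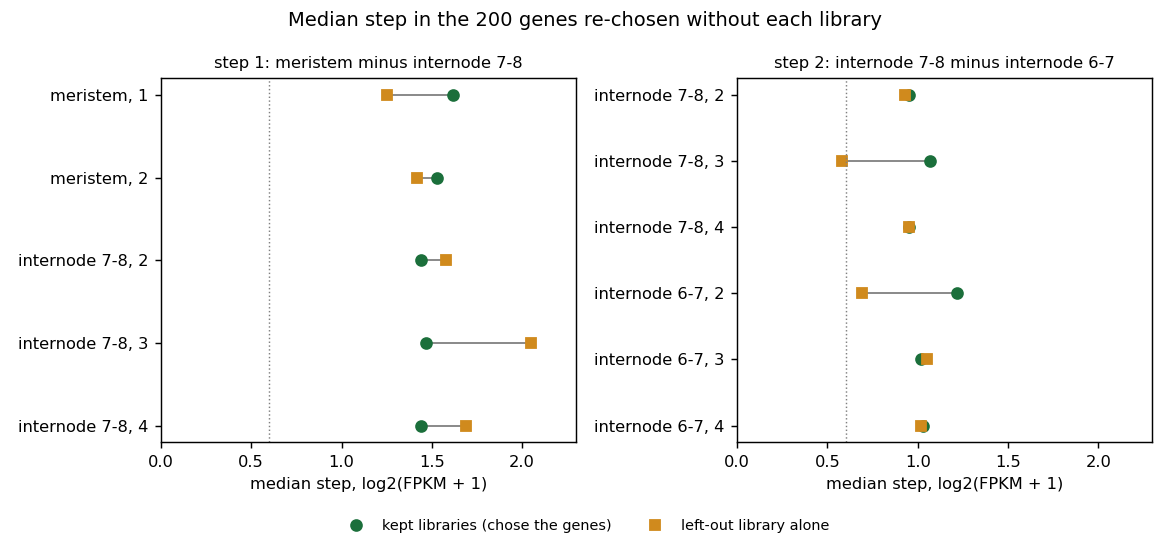
Median step in the 200 genes chosen again without 1 library (row), in log2(FPKM + 1). Circles are the libraries that chose the genes. Squares take the left-out library alone on its side of the step, against kept libraries on the other side. The dotted line is the limit of 0.6. Step 2 was at its lowest in internode 7-8 library 3, at 0.58, and in internode 6-7 library 2, at 0.69.

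Of the 200 members, 91 (45.5%) were matched to a reference gene, against 53.5% of tested genes, and 90 of these 91 were listed there as coding for a protein only. A name other than a model identifier was found for 18. These 18 are described by role, with the spikelet comparisons, which are the ones the rule did not use. A gene was called different at an adjusted p under 0.05 (limma, Benjamini-Hochberg over all tested genes) and a log2 difference of at least 1. The spikelet comparisons share the spikelet libraries, and the meristem and internode libraries in them were high or low by choice. Internode 7-8 entered both steps, with opposite signs, and how much the comparison with it leaned on the choice was not tested.

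**Figure D4:**
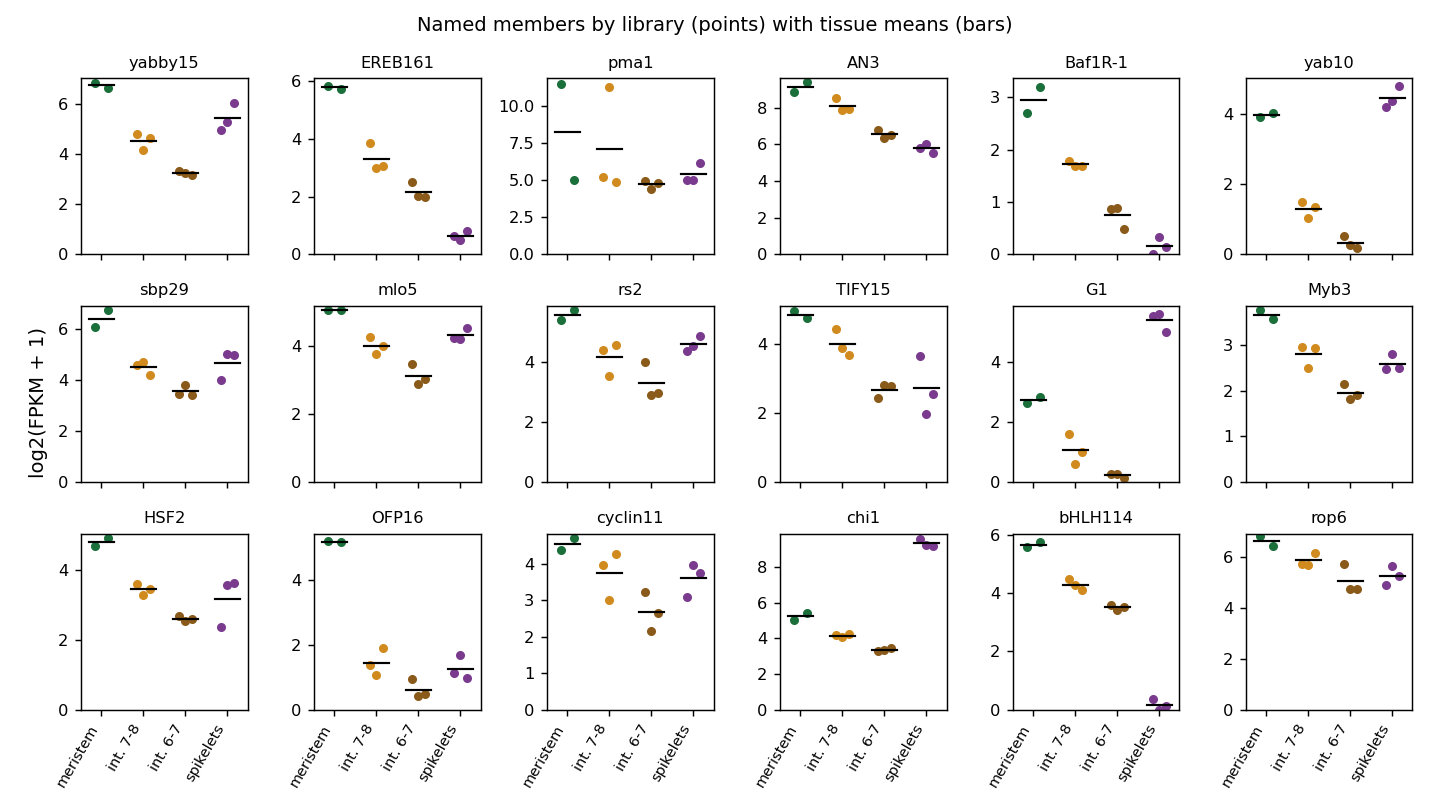
The 18 named members, 1 panel each, with log2(FPKM + 1) on the vertical axis and the 4 tissues on the horizontal axis; points are libraries and bars are tissue means, and each panel has its own scale. Spikelet points stand above the meristem points in chi1, G1 and yab10 and below all others in EREB161, AN3, Baf1R-1 and bHLH114.

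YABBY genes encode transcription factors that act in leaves and floral organs in many plants. The member yabby15 (GRMZM2G529859) had 113 and 98.4 FPKM in the meristem, 26.8, 16.7 and 23.9 in internode 7-8, 9.13, 8.50 and 7.86 in internode 6-7, and 30.0, 37.6 and 65.1 in spikelets. No tissue overlapped another, and spikelets stood between meristem and internode 7-8. Spikelets were lower than the meristem by a log2 difference of -1.31 ± 0.29 (SE, adjusted p = 0.0035) and higher than internode 6-7 by 2.18 ± 0.26 (adjusted p = 0.0001). The difference from internode 7-8 was 0.90 ± 0.26 (adjusted p = 0.018), under the size limit. With libraries scaled by the median of ratios, the difference from the meristem was -0.87 and no longer reached that limit.

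The second YABBY member, yab10 (GRMZM2G167824), had 14.2 and 15.3 FPKM in the meristem and 17.5, 19.9 and 26.8 in spikelets. Both were far above internode 7-8 at 1.82, 1.06 and 1.58 FPKM and internode 6-7 at 0.429, 0.213 and 0.142. Spikelets were higher than internode 7-8 by 3.16 ± 0.21 (SE, log2, adjusted p = 2e-06). Against the meristem the difference was 0.49 ± 0.24 (adjusted p = 0.1), which did not pass although the libraries did not overlap.

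Of 14 tested YABBY, KANADI and other polarity genes, these 2 met the rule. On the comparison of meristem with internode 7-8, 10 of the 14 were called higher in the meristem, both members among them (13.9% of tested genes were called higher and 4.02% lower). The list's median step 1 was 1.46, against 0.16 for all tested genes, and its median step 2 was 0.35, against -0.04. Among its non-members, the YABBY gene yab14 (GRMZM2G005353) had 43.9 and 37.3 FPKM in the meristem, 0.362, 0.155 and 0.337 in internode 7-8 and 0 in internode 6-7, with a step 1 of 5.02 and a step 2 of 0.36. At that internode 7-8 level no larger step 2 was possible on this scale. YAB6 (GRMZM2G074124) had 11.4 and 8.72 FPKM in the meristem, 7.26, 6.33 and 8.35 in internode 7-8, and 3.98, 2.20 and 1.88 in internode 6-7, so that its step 2 was 1.21 and its step 1 only 0.41. In spikelets, 9 of the 14 were called higher than in internode 7-8 (12.3% of tested genes) and 2 lower (13.7%). With libraries scaled by the median of ratios these counts were 10 (15.8% of tested genes) and 1 (9.25%).

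AN3, also named GIF1 (GRMZM2G180246), encodes a coactivator that binds growth-regulating factors. Its level was the highest among named members without an extreme library, at 454 and 671 FPKM in the meristem, 369, 234 and 239 in internode 7-8, 110, 81.2 and 89.6 in internode 6-7, and 55.5, 64.5 and 44.4 in spikelets. All 4 tissues were separate, in that order. Spikelets were lower than internode 7-8 by a log2 difference of -2.32 ± 0.23 (SE, adjusted p = 3.3e-05) and lower than the meristem by -3.32 ± 0.26 (adjusted p = 6e-06). The difference from internode 6-7, -0.77 ± 0.23 (adjusted p = 0.017), was under the size limit.

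The list of growth-regulating factors and their coactivators held 20 tested identifiers. GF14-6 and GF14-12 entered it through the synonyms grf1 and grf2 and encode 14-3-3 proteins. Of the 20, 3 met both steps of the rule. Besides AN3 these were atGRF5 (GRMZM2G105335), with steps of 0.90 and 0.72, and GRF2 (GRMZM2G099862), with steps of 0.92 and 0.61, whose scores fell outside the first 200. The factor gene atGRF5 had 71.5 and 160 FPKM in the meristem, 89.2, 59.1 and 34.7 in internode 7-8, and 32.0, 37.3 and 33.6 in internode 6-7, with overlap at both steps. GRF2, without overlap, had 71.1 and 78.7 FPKM in the meristem, 47.9, 44.2 and 28.3 in internode 7-8, and 27.9, 22.0 and 26.5 in internode 6-7. Of the 20, 10 were called higher in the meristem than in internode 7-8 (13.9% of tested genes were called higher and 4.02% lower). AN3, which the rule chose for this difference, was among them. The list's median step 1 was 1.04, against 0.16 for all tested genes, and its median step 2 was 0.08, against -0.04. In spikelets 12 of the 20 were called lower than in internode 7-8 (13.7% of tested genes) and 1 higher (12.3%). With libraries scaled by the median of ratios, the meristem count was 8 higher and 1 lower. Of 29856 tested genes, 3258 were then called higher and 1668 lower.

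Among other transcription factors, EREB161 (GRMZM2G021573), of the AP2/EREBP family, had 56.0 and 52.5 FPKM in the meristem, 13.7, 6.87 and 7.35 in internode 7-8, 4.65, 3.09 and 2.95 in internode 6-7, and 0.546, 0.409 and 0.752 in spikelets. Spikelets lay below every other library, by a log2 difference of -2.66 ± 0.26 (SE, adjusted p = 2.6e-05) from internode 7-8 and -1.53 ± 0.26 (adjusted p = 0.00075) from internode 6-7. The basic helix-loop-helix gene bHLH114 (GRMZM2G095899) had 47.0 and 53.1 FPKM in the meristem, 21.6, 18.5 and 16.1 in internode 7-8, and 11.1, 9.60 and 10.5 in internode 6-7. In spikelets it stood at 0.277, 0 and 0.0790 FPKM. Its spikelet level was lower than that of internode 7-8 by -4.14 ± 0.17 (SE, log2, adjusted p = 7.5e-08) and lower than that of internode 6-7 by -3.36 ± 0.17 (adjusted p = 3.4e-07). Both genes were thus lower in spikelets than in each of the other 3 tissues. With a pseudocount of 0.1 in place of 1, EREB161 differed from internode 6-7 by -2.45, and bHLH114 from internode 7-8 by -6.63 and from internode 6-7 by -5.80.

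OFP16 (GRMZM2G055257), of the OVATE family of plant transcriptional repressors, had the largest step 1 of the named members, 3.72. It had 35.3 and 34.6 FPKM in the meristem, 1.61, 1.07 and 2.73 in internode 7-8, 0.927, 0.341 and 0.382 in internode 6-7, and 1.18, 2.19 and 0.974 in spikelets. Only the meristem was high, and spikelets differed from it by -3.91 ± 0.30 (SE, log2, adjusted p = 5.9e-06). From internode 7-8 they differed by -0.19 ± 0.27 (adjusted p = 0.6), which did not pass.

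The rough sheath2 gene rs2 (GRMZM2G403620) encodes a MYB-domain protein that keeps KNOX homeobox genes silent in leaf primordia. It had 41.2 and 52.3 FPKM in the meristem, 20.2, 10.6 and 22.6 in internode 7-8, 15.2, 6.54 and 6.88 in internode 6-7, and 19.8, 22.2 and 28.1 in spikelets. The meristem stood apart, but the internodes overlapped. Spikelets were called higher than internode 6-7, by 1.29 ± 0.33 (SE, log2, adjusted p = 0.0079), and were not called different from the other tissues. Another MYB gene, Myb3 (GRMZM2G040924), had 12.5 and 10.8 FPKM in the meristem, 6.71, 4.62 and 6.69 in internode 7-8, 3.43, 2.53 and 2.72 in internode 6-7, and 4.54, 5.95 and 4.66 in spikelets. Its spikelet level was below the meristem's by -1.07 ± 0.22 (adjusted p = 0.0021), a difference of -0.97 without meristem library 1 and -0.67 after scaling, both under the size limit.

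The SBP-box gene sbp29 (GRMZM2G067624) belongs to a family of plant transcription factors, many of them restrained by a microRNA in young plants. It had 67.4 and 106 FPKM in the meristem, 23.3, 25.3 and 17.2 in internode 7-8, 10.1, 12.9 and 9.72 in internode 6-7, and 15.1, 31.3 and 30.9 in spikelets. The meristem and both internodes were separate, and spikelets overlapped with internode 7-8. Spikelets were lower than the meristem by -1.75 ± 0.32 (SE, log2, adjusted p = 0.0011) and higher than internode 6-7 by 1.11 ± 0.29 (adjusted p = 0.008). Without spikelet library 2 or library 3 the latter difference was 0.94 or 0.95, under the size limit. The heat shock factor gene HSF2 (GRMZM2G088242) had 24.7 and 28.8 FPKM in the meristem, 10.9, 8.59 and 9.97 in internode 7-8, 5.35, 4.72 and 5.06 in internode 6-7, and 4.08, 10.7 and 11.2 in spikelets. It was lower in spikelets than in the meristem, by -1.62 ± 0.33 (adjusted p = 0.0019), and passed in neither internode comparison.

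TIFY15 (GRMZM2G005954) belongs to the family that holds the JAZ repressors of jasmonate signalling. It had 30.0 and 26.0 FPKM in the meristem, 20.8, 13.8 and 11.8 in internode 7-8, 4.36, 5.97 and 5.87 in internode 6-7, and 11.7, 2.89 and 4.82 in spikelets. Its larger step was the second, 1.34, against 0.85 for the first. Spikelets were called lower than internode 7-8, by -1.28 ± 0.37 (SE, log2, adjusted p = 0.017). That call was lost without spikelet library 2 (-0.90, adjusted p = 0.063) and without internode 7-8 library 2 (-1.06, adjusted p = 0.065).

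Baf1R-1 and G1, whose roles are not described here, went opposite ways in spikelets. Baf1R-1 (GRMZM2G029096) had 5.52 and 8.20 FPKM in the meristem, 2.45, 2.22 and 2.23 in internode 7-8, 0.820, 0.844 and 0.398 in internode 6-7, and 0, 0.251 and 0.0962 in spikelets. G1 (GRMZM2G142721) had 5.21 and 6.09 FPKM in the meristem, 2.02, 0.518 and 1.01 in internode 7-8, 0.205, 0.213 and 0.0850 in internode 6-7, and 45.9, 47.3 and 31.4 in spikelets. Against internode 7-8, spikelets differed by -1.57 ± 0.20 (SE, log2, adjusted p = 0.00017) in Baf1R-1 and by 4.32 ± 0.26 (adjusted p = 1.1e-06) in G1. At such low levels the size follows the pseudocount, and with 0.1 in place of 1 the difference was -3.66 in Baf1R-1. Both genes had their 3 vegetative tissues separate.

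The gene chi1 (GRMZM2G155329) encodes chalcone isomerase, an enzyme that acts early in the making of flavonoids. It had 32.5 and 42.8 FPKM in the meristem, 17.1, 15.8 and 18.0 in internode 7-8, and 8.88, 9.07 and 10.1 in internode 6-7. In spikelets it reached 769, 626 and 601 FPKM. The even fall through the vegetative tissues was thus small beside the spikelet level, which exceeded internode 7-8 by 5.21 ± 0.15 (SE, log2, adjusted p = 6.2e-09) and the meristem by 4.11 ± 0.17 (adjusted p = 9.5e-08).

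The membrane protein gene mlo5 (GRMZM2G471142), whose barley relative is known for susceptibility to powdery mildew, had 32.1 and 32.1 FPKM in the meristem, 17.9, 12.5 and 14.8 in internode 7-8, 9.90, 6.37 and 7.16 in internode 6-7, and 17.5, 17.3 and 21.9 in spikelets. Its spikelet level exceeded internode 6-7 by 1.19 ± 0.19 (SE, log2, adjusted p = 0.00064). The gene rop6 (GRMZM2G176217) had 112 and 86.6 FPKM in the meristem, 52.0, 51.1 and 71.1 in internode 7-8, 52.1, 25.8 and 26.0 in internode 6-7, and 29.2, 48.6 and 36.7 in spikelets. The internodes overlapped. Spikelets were lower than the meristem by -1.37 ± 0.32 (adjusted p = 0.0041), or by -0.93 after scaling, under the size limit.

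The cyclin gene cyclin11 (GRMZM2G161382) was the only member among 30 tested cell cycle and replication genes. It had 19.9 and 25.0 FPKM in the meristem, 14.5, 7.05 and 18.2 in internode 7-8, 8.37, 3.42 and 5.30 in internode 6-7, and 7.44, 14.7 and 12.5 in spikelets, so the internodes overlapped. It was called in no spikelet comparison. The D-type cyclin gene cycD4 (GRMZM2G133413) met the rule with a score below the first 200. It had 37.0 and 38.6 FPKM in the meristem, 5.24, 4.51 and 3.63 in internode 7-8, 2.55, 2.52 and 2.22 in internode 6-7, and 0.884, 1.56 and 1.23 in spikelets. The cell cycle list as a whole did not follow the members, with a median step 1 of 0.14 and a median step 2 of -0.03. In spikelets 18 of the 30 were called lower than in internode 7-8 (13.7% of tested genes) and 1 higher (12.3%). With libraries scaled by the median of ratios 12 were called lower (9.25% of tested genes) and 1 higher (15.8%).

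Of 33 gene lists by function or family, 8 held a member. The list with the highest median step 1, that of HD-ZIP IV and wax genes, which act in the epidermis, held no member. Its median step 1 was 2.87 over 9 genes and its median step 2 was -0.28. The KNOX and WOX homeobox list, with 13 genes, had medians of -0.42 and 0.21. Photosynthesis genes ran against the members, with medians of -1.86 and -1.05 over 15 genes. Over the 49 auxin genes and the 35 ribosomal protein genes the medians lay between 0.04 and 0.15 for both steps.

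Several members without a name had high levels, and these were chosen for mention after their values were seen. GRMZM2G069911 had 529 and 730 FPKM in the meristem, 170, 191 and 361 in internode 7-8, 155, 98.4 and 79.9 in internode 6-7, and 1273, 1728 and 1092 in spikelets. Spikelets were highest there, as in chi1. GRMZM2G112210 had 426 and 447 FPKM in the meristem, 181, 219 and 237 in internode 7-8, 161, 103 and 98.9 in internode 6-7, and 6.68, 44.6 and 30.7 in spikelets. Spikelets were lowest in that gene. GRMZM2G314667 had 213 and 193 FPKM in the meristem, 10.1, 7.57 and 12.5 in internode 7-8, 3.65, 4.31 and 3.12 in internode 6-7, and 20.0, 40.1 and 23.8 in spikelets. It combined a step 1 of 4.23 with no overlap between any of its tissues. GRMZM2G304385 had 23.5 and 32.6 FPKM in the meristem, at most 5.30 in internode 7-8 and at most 1.87 in internode 6-7, and 196, 282 and 318 in spikelets. Among all members, 1 pair lay close together in the reference, GRMZM2G086553 and GRMZM2G086474, with 1 gene between them.

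In spikelets the members did not form a single class. The median member stood at 8.43 FPKM there, against 5.84 FPKM over all tested genes, with library medians of 5.40, 7.87 and 8.13. Against internode 7-8, 44 members were called higher (12.3% of tested genes), 43 were called lower (13.7%) and 113 were not called, with a median log2 difference of -0.56, against -0.22 for all tested genes. Among the 145 members above 0 in all 8 libraries, the counts were 36 higher and 42 lower. Among the 123 members without overlap in both steps they were 35 and 36. By means, spikelets lay above internode 7-8 in 81 members and below it in 119. With libraries scaled by the median of ratios the calls were 49 higher (15.8% of tested genes) and 37 lower (9.25%).

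Against the meristem, where the members were high by choice, 9 were called higher in spikelets (11.7% of tested genes) and 114 lower (26.7%). The median log2 difference was -2.04, against -0.36 for all tested genes. Against internode 6-7, where they were low by choice, 70 were called higher (13.0%) and 19 lower (19.9%), with a median of 0.57, against -0.28. The library scaling bore on the split of all tested genes. With libraries scaled by the median of ratios, the share called higher among all called genes moved from 47.2% to 63.1% against internode 7-8, from 30.5% to 49.4% against the meristem, and from 39.6% to 56.6% against internode 6-7. For the members that share moved from 50.6% to 57.0%, from 7.32% to 12.7% and from 78.7% to 81.6%.

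By tissue means, spikelets lay at or above the meristem in 31 members (15.5%, against 36.4% of tested genes). They lay from internode 7-8 up to the meristem in 50 (25.0%, against 11.6%), from internode 6-7 up to internode 7-8 in 67 (33.5%, against 3.65%) and below internode 6-7 in 52 (26.0%, against 48.4%). Of the 67, 22 were at 0 in every library of both spikelets and internode 6-7, so only 45 had a spikelet mean strictly between the internodes. Among the 145 members above 0 in all 8 libraries, that count was 37 (25.5%). For tested genes, whose vegetative tissues come in any order, the first of these conditions to hold was counted. The rule spread the 3 vegetative means apart, which by itself leaves more room for another value between them. By single libraries, all spikelet libraries lay above all meristem libraries in 17 members (8.5%, against 22.1% of tested genes) and below all internode 6-7 libraries in 28 of 200 (39.4% of tested genes). A member with an internode 6-7 library at 0 could not meet the latter condition. All 28 were among the 145 members above 0 in the 8 libraries of the rule, 19.3% of these.

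**Figure D5:**
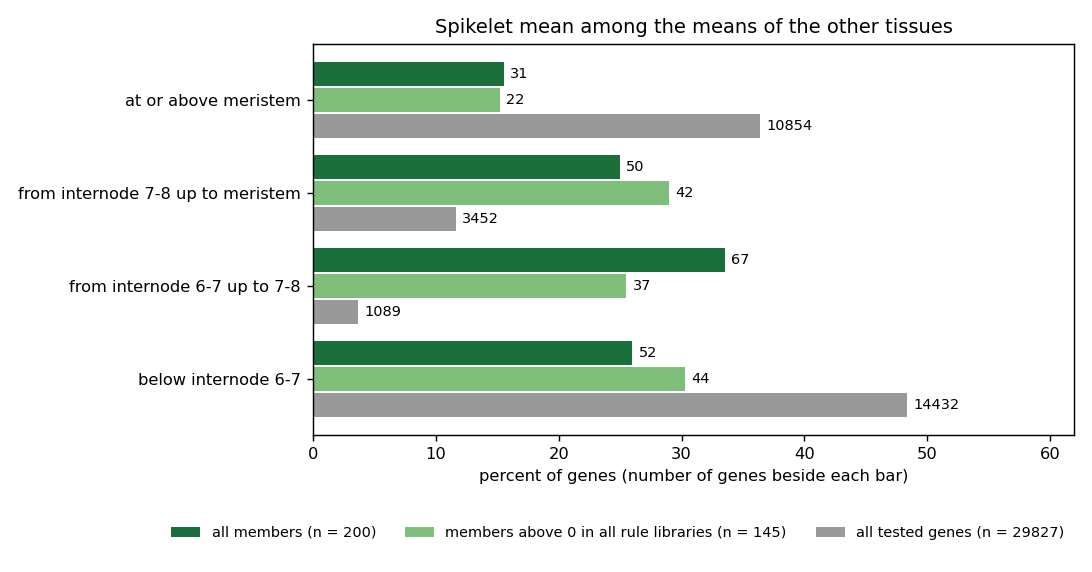
Percent of genes (horizontal axis) by where the spikelet mean of log2(FPKM + 1) fell among the means of the other 3 tissues (rows); dark green bars are all 200 members, light green bars the 145 members above 0 in all 8 libraries of the rule, grey bars all 29827 tested genes, and the number at each bar counts genes. The 67 members in the third row include 22 at 0 in every library of both spikelets and internode 6-7. With these ties counted as outside, spikelets lay strictly inside the range of the other tissues in 95 members and not in 105.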

How the data were processed

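RNA was measured by sequencing of polyA-selected, strand-keeping libraries, per the labels' protocols. The authors deposited FPKM values per gene in a single table with 109715 rows and 68 columns of values. Per the submitters' processing notes, Bowtie2 2.1.0, TopHat2 2.0.8b and Cufflinks 2.1.1 were used. Genome build, annotation and use of strand in counting: not given in the sources used here. Overlapping and antisense genes, and near-identical copies, are therefore uncertain. Read depth is unknown, and no counting interval is given.

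Of the value columns, 11 could be tied to the labels by name, meristem and spikelet columns through the initials of their tissues. Internode columns carry the numbers 2 to 4 where the titles carry others, so they stand for their tissue but for no sample. The remaining 57 columns were not used. No label ties replicates to different plants. The p-values therefore reflect the spread among these libraries alone, and that spread may be technical.

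The rule was applied to log2(FPKM + 1). Spikelets were compared with each other tissue by limma 3.58.1 in R 4.3.3, with 1 mean per tissue over all 11 libraries, a trended prior variance and two-sided tests, and p-values were adjusted by Benjamini-Hochberg over the 29827 tested genes. Folds on this scale understate low genes. The rule and the fit were also run on simulated data with normal noise and no genes listed at 0 in single libraries. Those runs cannot show how zeros and single extreme libraries were handled. Alternatives were pseudocounts of 0.1 and 0.5, no filter, median-of-ratios scaling, only the tissues compared, the column number as a block, each library left out, and, added after seeing the data, members above 0 or without overlap only.

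Names came from RefSeq's gene table for Zm-B73-REFERENCE-NAM-5.0, whose build may differ, so no coordinates are given, and sequences were not used here. Named in the text are the 10 named and 5 unnamed members with the highest scores, the 5 named members highest in the meristem, up to 4 named members and 3 other genes of a list, the named members with the most extreme spikelet differences, the genes at the score limit, and markers. The other named members are given as well. The members and lists were chosen with earlier results of these data known.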

Additional observations from a re-analysis of the deposited data

How the results depend on the processing

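The choice of members depended on the treatment of low values and on single libraries. With a pseudocount of 0.1 in place of 1, 106 of the 200 members were chosen again, and with 0.5, 171 were. Leaving out single libraries kept 133 to 177, the lowest without internode 7-8 library 2. Median-of-ratios scaling kept 176 and left 196 of the 200 above both limits. It moved the median of all tested genes from 0.157 to 0.011 for step 1 and from -0.037 to 0.003 for step 2, and the members' medians from 1.442 to 1.278 and from 1.025 to 1.071. Under this scaling 14 members in place of 9 were called higher in spikelets than in the meristem, as were 5315 tested genes in place of 3497. All other member counts stayed within 1.5 times their value under the alternatives run. With single libraries left out, 36 to 46 members were called higher and 36 to 50 lower in spikelets than in internode 7-8, 8 to 10 and 106 to 117 against the meristem, and 67 to 74 and 16 to 20 against internode 6-7. With the column number as a replicate block the counts were 41 and 39, 10 and 113, and 75 and 17. Deviations from tissue means correlated at -0.157 to 0.202 between libraries of the same number and at -0.207 to 0.256 between others. With so few libraries per tissue the deviations are tied to each other, so these values cannot exclude pairing. The numbers were not taken to pair libraries. Only called differences of the named members were repeated under the alternatives. Part of these repeats left out a library of neither tissue compared, which leaves the difference itself unchanged. None of the differences changed sign, and the calls held in 500 repeated tests and were lost in 10. These concerned TIFY15, yabby15, Myb3, rop6 and sbp29, and those not given above were TIFY15 against internode 7-8 with only these 2 tissues fitted (adjusted p = 0.073) and Myb3 against the meristem with the block (-0.98). The cause was not tested. Unknown depth limits what can be read from levels under 1 FPKM.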
